A study of Mus musculus with 12 samples.

Results

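The cytosolic ribosomal protein genes encode the proteins of the 40S and 60S subunits of the ribosome. They were found by symbol: names beginning with Rpl or Rps and a number, the acidic stalk proteins Rplp0, Rplp1 and Rplp2, and Rpsa, leaving out symbols marked -ps, the S6 kinases (Rps6k) and Rps19bp1. The table of MII eggs held 91 such genes among 22801. Of these, 77 were the core genes, 1 for each protein of the standard ribosome that the symbols cover, and 14 were paralogs or retrocopies with a symbol of their own, such as Rps4l. The table of GV oocytes, which lists only genes that the authors selected, held 8 of them among 3475, so that absence from it means not selected rather than not expressed.

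The study compared oocytes that lack Lsm14b with controls. LSM14B is an RNA-binding protein of the cytoplasmic particles in which oocytes keep untranslated messenger RNA. All oocytes came from C57BL/6 females at postnatal day 35, and each tube held 15 oocytes. Controls (WT) carried the floxed allele without Cre (Lsm14bfl/fl), and conditional knockouts (CKO) carried the same allele with Gdf9-Cre (Lsm14bfl/fl-Gdf9-Cre), a transgene that is active in oocytes from small follicles onwards, so both genotypes carried loxP sites and only the knockouts carried Cre. Germinal vesicle (GV) oocytes are arrested before meiotic maturation and metaphase II (MII) eggs after it. Each of the 4 groups had 3 libraries, described by the labels as biological replicates: replicates 1, 2 and 4 of both genotypes at GV, replicates 1, 2 and 3 of WT at MII, and replicates 2, 3 and 4 of CKO at MII.

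As background, each ribosome holds 1 copy of nearly every ribosomal protein, and growing cells make the messages in large and balanced amounts. Ribosomal protein mRNAs begin with a run of pyrimidines (the 5′ terminal oligopyrimidine or TOP motif), through which the kinase mTOR and the RNA-binding protein LARP1 switch their translation on and off together. A fully grown oocyte has stopped transcription, holds ribosomes made during growth, and passes through meiosis on stored mRNA, much of which is degraded between GV and MII. Ribosomal protein genes also have many processed pseudogenes, whose transcripts can be nearly identical to the parent, so that short reads may be assigned to either.

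That last point bears on every value below, and the sequences of 2 pairs show its range. Rps4l is a copy of Rps4x on another chromosome, and GENCODE M21 annotates it as a transcribed processed pseudogene. Over 789 aligned bases the transcripts were 80.1% identical, the longest identical run was 35 bases, and no window of 50 bases was shared, so reads of the copy and of the parent can be told apart. Rpl6l, annotated as a processed pseudogene of Rpl6, was 98.7% identical to it over 871 bases, with an identical run of 354 bases, and reads from that run cannot be assigned. The 90-base windows within a single coding exon of the parent with the most differences held 26 differences for the Rps4x pair and 6 for the Rpl6 pair. They are printed 5′ to 3′ on the strand of the gene from GENCODE M21 (GRCm38), with the bases that differ between parent and copy in capitals. The Rps4x window is chrX:102186413-102186502 (minus strand), the Rps4l window chr6:148355135-148355224 (plus strand), the Rpl6 window chr5:121206706-121206795 (plus strand) and the Rpl6l window chr10:111126250-111126339 (plus strand).
Rps4x: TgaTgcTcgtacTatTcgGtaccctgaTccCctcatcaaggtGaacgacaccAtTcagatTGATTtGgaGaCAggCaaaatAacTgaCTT
Rps4l: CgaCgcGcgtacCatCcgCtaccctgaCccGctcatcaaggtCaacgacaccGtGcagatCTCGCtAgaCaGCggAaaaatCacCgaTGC
Rpl6: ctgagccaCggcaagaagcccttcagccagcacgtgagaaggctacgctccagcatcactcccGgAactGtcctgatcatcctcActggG
Rpl6l: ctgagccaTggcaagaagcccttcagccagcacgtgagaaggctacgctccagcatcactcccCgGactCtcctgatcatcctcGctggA

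For each of the 77 core genes, the share of its transcript's 50-base windows that also occur in another gene's annotated transcript was counted. Matches on either strand entered it. The share had a median of 62.2% and ran from 0% to 98.65% (Rps27). It was over 50% for 48 genes. It was 76.78% for Rps2, 74.29% for Rpl18, 62.24% for Rpl11 and 85.48% for Rpl36a, and it is given below for some of the other genes on which a result turns.

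The MII libraries held 23077600 to 124873000 reads, with 88494500 to 124873000 in WT and 23077600 to 40530300 in CKO. Values are given as the authors' normalized read counts. A gene at 0 had no read in that library, and a count of 0 allows an expected count of up to 3 reads, which is 1.54 to 1.79 normalized counts in WT and 4.13 to 7.60 in CKO. Lsm14b checked the labels: its normalized counts at MII were 10868, 10643 and 11641 in WT and 822, 982 and 920 in CKO, and at GV 30132, 18816 and 19845 in WT and 1436, 1601 and 1273 in CKO. The deleted part of the gene is not stated. Of 19 oocyte markers 17 were in the MII table, none at 0 in all libraries, with a summed count of 1216600 to 1442350 in WT and 1411900 to 1645480 in CKO.

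WT replicate 3 stood apart from the other WT eggs at MII, and this touched most core genes. It held the highest WT value of 64 of the 77 core genes (83.1%), against 36.8% of all 20388 genes tested, and 51 core genes were over 2 times higher in it than in both other WT libraries (66.2%, against 19.0% of all genes). The gene models CT010467.1 and Gm42418, which lie in ribosomal RNA sequence, took 29.5% of its reads against 7.05% and 10.02% in WT replicates 1 and 2 and 8.82% to 12.9% in CKO. The 16 cumulus and granulosa markers in the table, of 24 listed, summed to 5214 in it against 2977 and 2933 in WT replicates 1 and 2 and 3448 to 4449 in CKO. Cyp19a1 alone, the aromatase of granulosa cells, was at 3071 in it against 734 and 918 in WT replicates 1 and 2. Amh and Fshr were at 0 in it. Single oocyte markers differed in both directions. H1f8 was at 358500 in it against 85590 and 114700 in WT replicates 1 and 2, and Mos at 39470 against 12480 and 14180. Zp1 was at 28960 against 127400 and 99210, and Kit at 56510 against 157400 and 129900. The part of these counts in the results was not tested, and the calls and medians at MII are given with and without this library.

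At MII the core genes were expressed over a very wide range. Per kilobase of coding sequence, the mean WT level ran from 4.15 normalized counts (Rpl9) to 18765 (Rpl4), a ratio of 4517, with a median of 200. The order was largely shared by the genotypes (Spearman's rho of 0.825 between WT and CKO across the 77 genes, given as a description, since the genes share libraries). Genes with over 50% of windows shared had a median WT level of 171 per coding kilobase against 256 for the 29 others, with a rho of -0.16 between the shared part and the level.

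**Figure D1:**
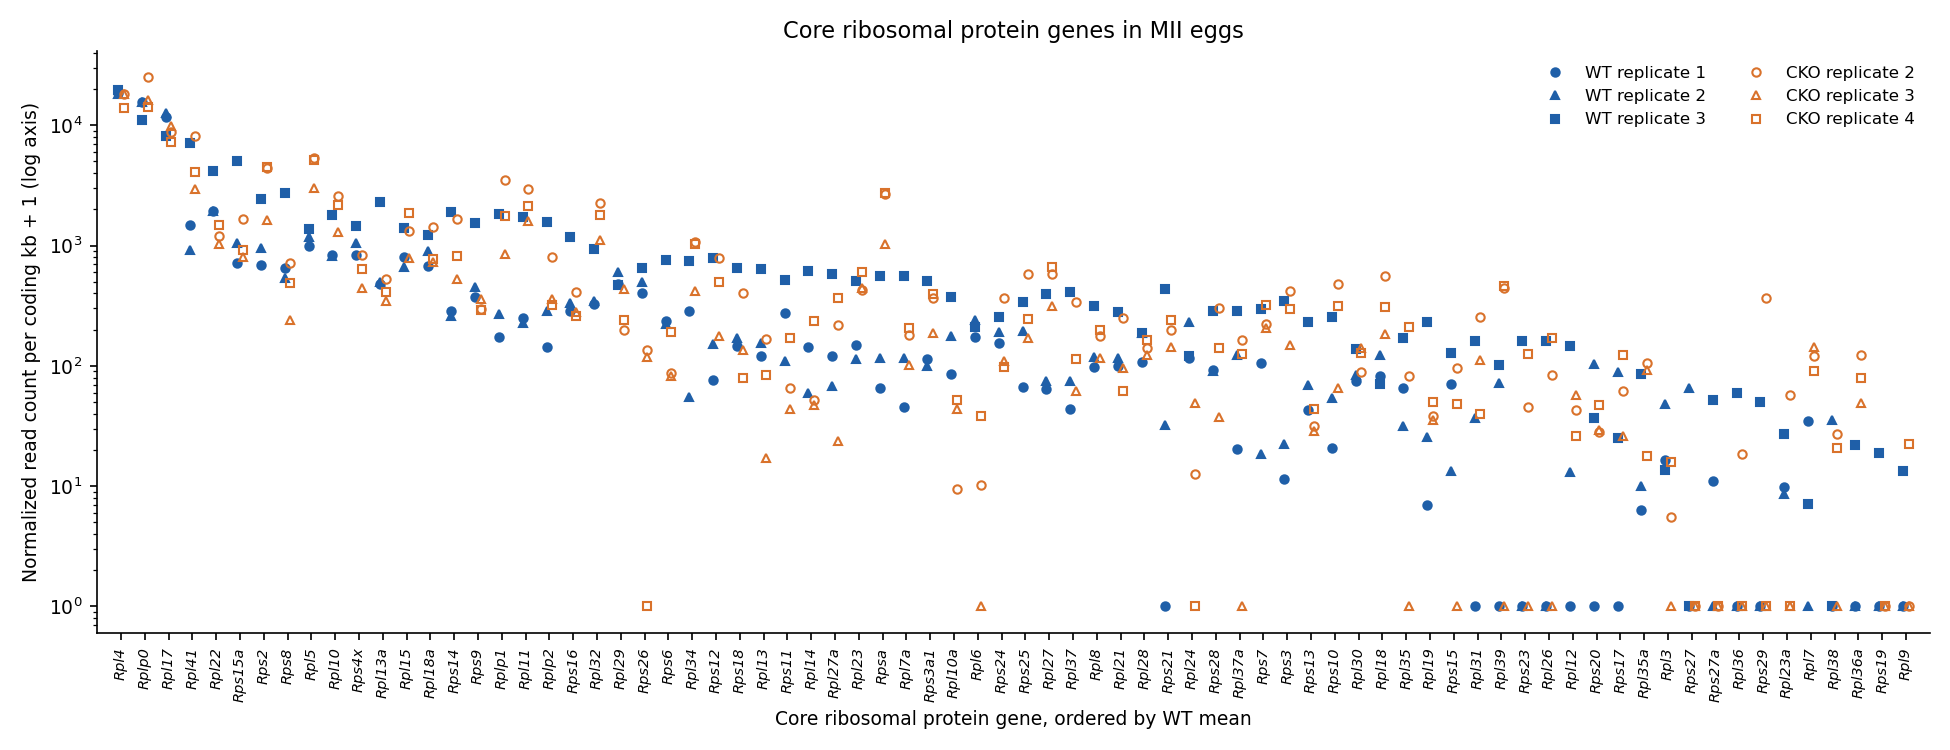
Normalized read count per coding kilobase plus 1 (log axis) of 76 of the 77 core ribosomal protein genes in the 6 MII libraries, ordered by WT mean from Rpl4 (18765) to Rpl9 (4.15). Filled symbols are WT and open symbols CKO, and WT replicate 3 (filled squares) is the highest WT library for 64 of them.

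Rpl4, Rplp0 and Rpl17 had the highest WT levels of the core genes per coding kilobase, and Rpl5 ranked 10. Together these genes made up most of the core counts, and Rpl5 alone of them passed the test between genotypes. Rpl4, a protein of the 60S subunit that lines the peptide exit tunnel, had normalized counts of 23111, 22971 and 24681 in WT and 22954, 23083 and 17595 in CKO. The groups overlapped, and CKO replicate 4 was the lowest library (log2 difference -0.16, CKO minus WT, SE 0.26, adjusted p = 0.748 by limma). Rplp0, the base of the acidic stalk that recruits translation factors, was at 14899, 14896 and 10498 in WT and 23856, 15323 and 13523 in CKO. Its highest library was CKO replicate 2 and its lowest WT replicate 3, and the groups overlapped (0.36, SE 0.31, adjusted p = 0.624 by limma).

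Rpl17, which sits at the rim of the exit tunnel, was at 6466, 6968 and 4462 in WT and 4845, 5400 and 4016 in CKO, with overlap. Rpl5 is described below. Rpl41, the shortest ribosomal protein, ranked 5 per coding kilobase and 12 per kilobase of transcript, a scale added after seeing the data. It was at 204, 126 and 988 in WT and 1132, 408 and 565 in CKO, so that WT replicate 3 alone lay inside the CKO range.

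Together these genes (Rpl4, Rplp0, Rpl17 and Rpl5) held 80.1%, 78.0% and 58.4% of the core normalized counts in WT replicates 1, 2 and 3 and 66.8%, 77.8% and 65.5% in CKO replicates 2, 3 and 4. WT replicate 3 was the lowest library in that share, and the share of CKO replicate 3 was close to those of the other WT libraries. The share includes Rpl5, which passed the test. Rpl4 and Rplp0 alone held 67.1%, 64.4% and 50.2% in the WT libraries and 55.5%, 64.3% and 51.3% in the CKO libraries.

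At the other end, the least abundant core messages were near the limit of detection. Rpl9 was at 0, 0 and 7.18 in WT and 0, 0 and 12.4 in CKO. Rps19, a 40S protein needed for maturation of the small subunit, was at 0, 0 and 11.3 in WT and at 0 in every CKO library. Rpl38 was at 0, 7.18 and 0 in WT and 5.51, 0 and 4.13 in CKO. In these 3 genes no difference was detectable at this depth. Between 2 and 15 core genes were at 0 in a WT library (15, 9 and 2) and between 4 and 16 in a CKO library (4, 16 and 8).

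As a whole, the core genes took a small share of the reads in both genotypes, which was 0.103%, 0.111% and 0.109% in WT and 0.151%, 0.102% and 0.113% in CKO. CKO replicate 2 was the highest library and CKO replicate 3 the lowest, so the WT libraries lay within the CKO range. The mean was 0.108% ± 0.00412 in WT and 0.122% ± 0.0258 in CKO (SD, n = 3), a ratio of 1.13. Without CKO replicate 2 the ratio was 0.998, and without WT replicate 3 it was 1.14. With the reads of CT010467.1 and Gm42418 left out of the totals, the share was 0.111%, 0.123% and 0.155% in WT and 0.166%, 0.113% and 0.130% in CKO. On that scale WT replicate 3 was the highest WT library. In tubes of pooled oocytes, fewer cells with a message and less of it per cell cannot be told apart.

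All members but the paralog Rpl32l (0 in WT, 2.75, 0 and 2.75 in CKO) reached the mean of 1 normalized count required for the test. Gene by gene, 2 of the 90 members tested were higher in CKO eggs and none lower at an adjusted p under 0.05 (limma with a mean-variance trend, adjusted over all 20388 genes). In all genes 0.52% were called higher and 0.991% lower. The 2 were Rps4l and Rpl5. Before adjustment, p was under 0.05 for 10 higher and 5 lower members (6.7% and 9.28% of all genes). In 9 members the CKO libraries all lay above the WT libraries and in 9 all below, against 10.4% and 12% of all genes, so the share of members without overlap was near that of all genes in each direction.

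The median log2 difference of the 77 core genes was 0.17, against -0.11 for all genes tested, and single core genes ran from -4.75 (Rpl6) to 4.12 (Rpl7). Of them 42 were above 0 and 35 below, while 46.5% of all genes were above 0. The 31 genes of the 40S subunit had a median of -0.32 (14 above 0) and the 46 of the 60S subunit 0.22 (28 above 0). Leaving out 1 library moved the core median on either side of 0. It was 0.57 without WT replicate 3, 0.61 without CKO replicate 3, and -0.28 without WT replicate 1.

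**Figure D2:**
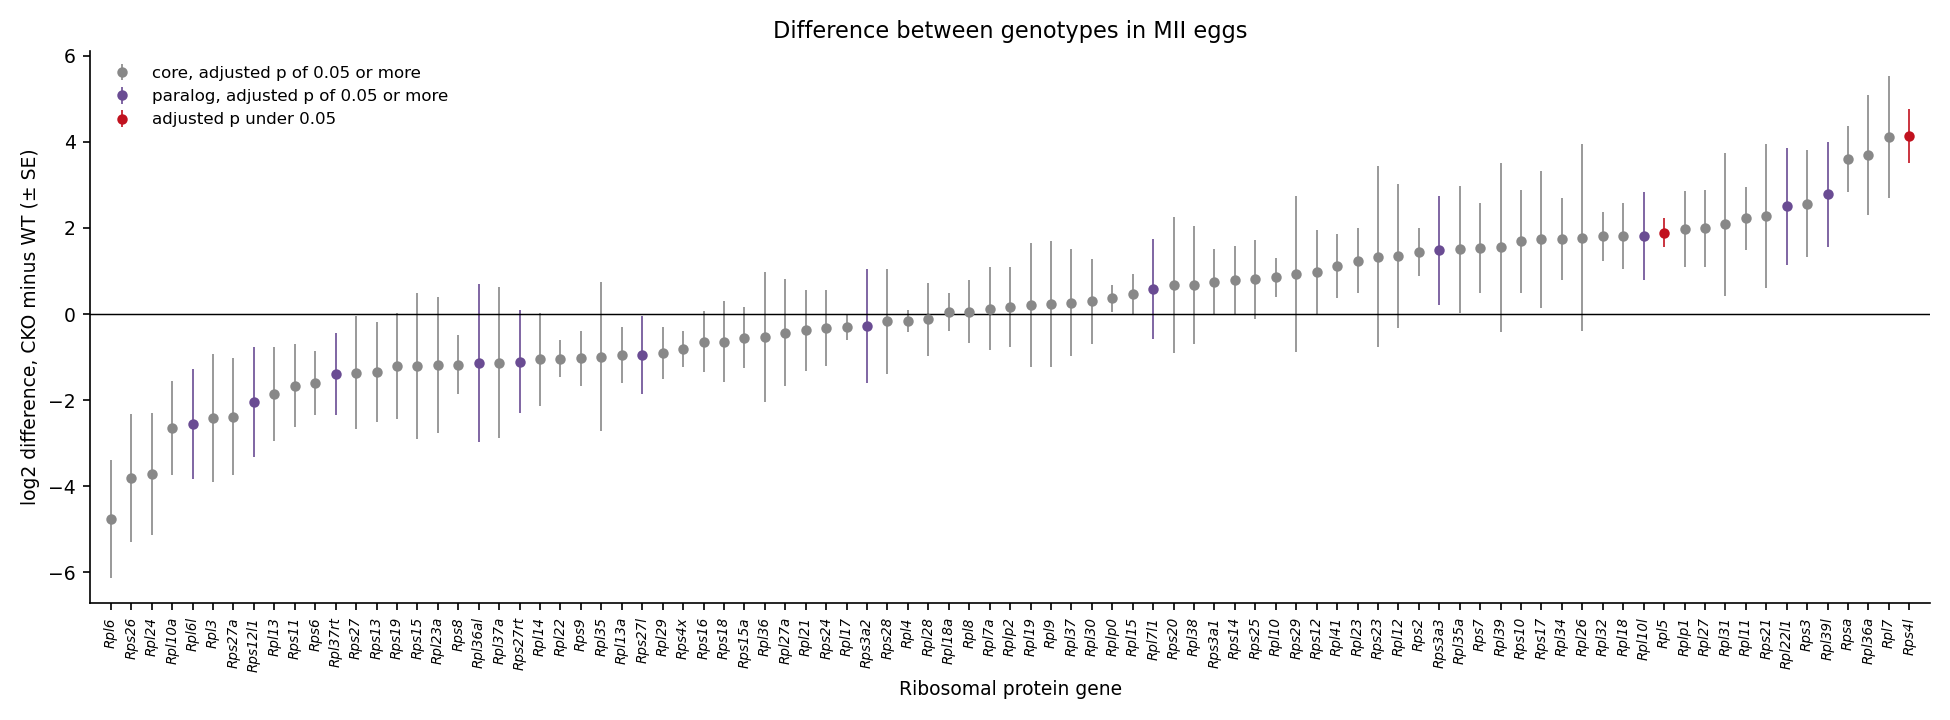
Difference in log2(normalized count + 1) between CKO and WT eggs at MII for 89 of the 90 ribosomal protein genes tested, in increasing order, with standard errors from limma. Rps4l (4.13) and Rpl5 (1.89), in red, are the 2 genes with an adjusted p under 0.05, core genes are in grey and paralogs in purple.

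The authors' deposited MII table, whose test differs, called 5 members higher (Rps4l, Rpl5, Rpsa, Rpl18 and Rpl32) and 1 lower (Rpl6), where it called 4.6% and 6.94% of all genes. Rps4l had a log2 fold change of 4.11 there and Rpl5 1.93.

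Leaving out WT replicate 3 changed which members passed. Rpl11 (log2 difference 3.18, adjusted p = 0.0346), Rpsa (4.49, adjusted p = 0.0384) and Rps4l (4.45, adjusted p = 0.0400) were then higher by limma, none was lower, and 1.3% and 3.06% of all genes were called higher and lower. Rpl5 then had a log2 difference of 2.01 at an adjusted p of 0.0504. Without any other single library of either genotype no gene of the table was called, members included. Before adjustment, p was then under 0.05 for 4 to 8 higher and 2 to 5 lower members. The share of all genes at that level was not counted for these fits, so the numbers of members are a description only. The number of core genes above 0 was 49 without WT replicate 3 and 27 were below.

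**Figure D3:**
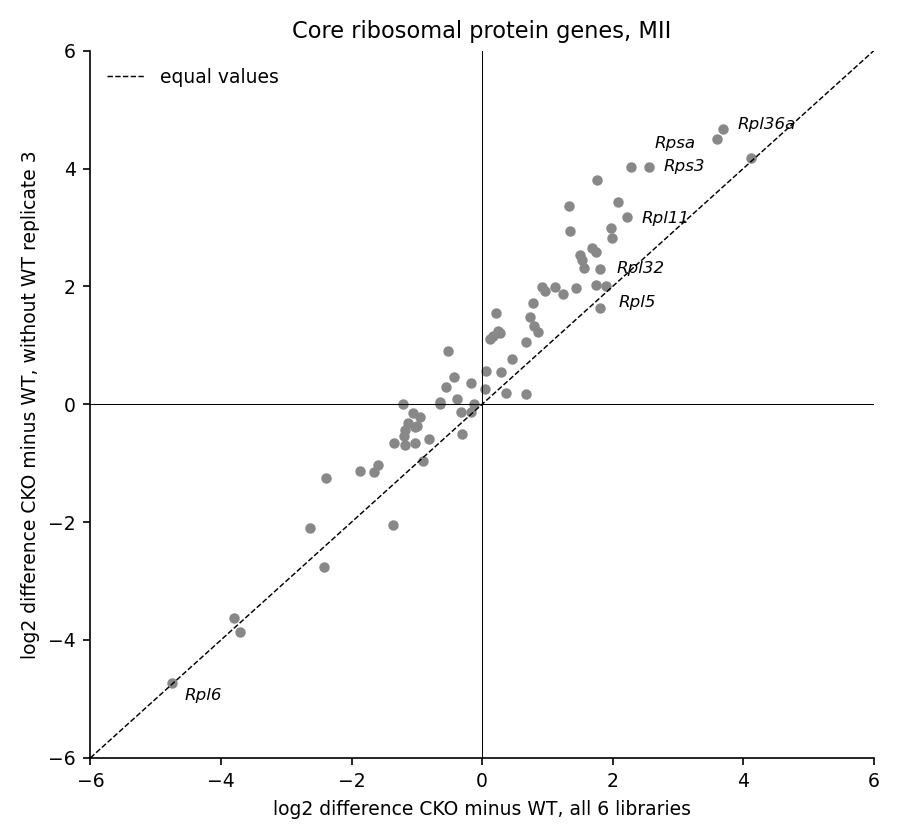
Log2 difference between CKO and WT eggs at MII for 76 of the 77 core ribosomal protein genes, with all 6 libraries (x axis) and without WT replicate 3 (y axis), and a dashed line of equal values. The number of genes above 0 goes from 42 to 49.

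Among single members, Rps4l showed the largest called difference. RPS4 is a protein of the 40S subunit, and Rps4l is its autosomal retrocopy shown above. Its normalized counts were 30.6, 70.0 and 92.8 in WT eggs and 1356, 585 and 1410.5 in CKO eggs. Every CKO library lay above every WT library, with CKO replicate 3 the lowest of its group (log2 difference 4.13, SE 0.63, adjusted p = 0.0197 by limma). The parent gene on the X chromosome, Rps4x, went the other way without passing the test: 660, 835 and 1146 in WT and 661, 352 and 507 in CKO, with overlap (-0.81, adjusted p = 0.376 by limma). Of the 50-base windows of Rps4l 18.0% were shared, only with Rps4l-ps and none with Rps4x.

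At GV Rps4l was also higher. The authors' deposited table gave 1488, 1951 and 1436 in WT oocytes and 3152, 4004 and 3321 in CKO oocytes, with no overlap. The log2 fold change in the authors' deposited table was 1.10 with an adjusted p of 5.62e-07. The 2 tables were normalized separately, so a change between the stages was not tested. Side by side, the mean was 1625 ± 283 at GV and 64.5 ± 31.4 at MII in WT, and 3493 ± 451 and 1117 ± 462 in CKO (SD, n = 3).

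Rpl5 binds the 5S ribosomal RNA together with Rpl11 before both enter the 60S subunit, and the free complex binds the p53 inhibitor MDM2. The normalized counts of Rpl5 were 881, 1045 and 1232 in WT and 4720, 2661 and 4620 in CKO, and the groups did not overlap (log2 difference 1.89, SE 0.34, adjusted p = 0.0304 by limma). Rpl11 was at 133, 121 and 922 in WT and 1567, 861 and 1143 in CKO. Only WT replicate 3 reached the CKO range, and the difference of 2.23 (SE 0.73) did not pass the test with all libraries (adjusted p = 0.172 by limma). Neither gene was in the GV table.

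Nearly all of Rpl5 is shared with other annotated transcripts (93.84% of its windows), including 45.3% with its overlapping neighbour Dipk1a (Fam69a in GENCODE M21) and 48.5% with the processed pseudogene Gm15500. Dipk1a was at 302, 264 and 188 in WT and 99.1, 408 and 167 in CKO, with overlap (-0.38, adjusted p = 0.766 by limma). Gm15500 was at 123, 159 and 238 in WT and 525, 517 and 627 in CKO, without overlap (1.73, adjusted p = 0.116 by limma). The pseudogene copy thus lay higher in CKO by about as much as Rpl5 while its neighbour did not, and how reads were divided between them was not given in the sources used here.

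On the mRNA-facing side of the 40S subunit, WT replicate 3 was the WT library nearest to the CKO libraries in Rpsa and Rps2 and the farthest from them in Rps26, described below. Rpsa, also known as the laminin receptor, was at 57.2, 101 and 491 in WT and 2387, 904 and 2423 in CKO, without overlap (3.60, SE 0.77, adjusted p = 0.0533 by limma). Its copy Rpsa-ps10, which shares 40.3% of its windows, was at 0, 2.39 and 14.4 in WT and 89.5, 32.9 and 120 in CKO (4.27, adjusted p = 0.174 by limma). Rps2, at the mRNA entry, was at 624, 867 and 2225 in WT and 3991, 1486 and 4052 in CKO, with WT replicate 3 above CKO replicate 3 (1.44, adjusted p = 0.235 by limma). Of the 7 listed genes of the mRNA channel (Rpsa, Rps2, Rps3 and Rps26 among them) none passed the test, and Rpsa did without WT replicate 3.

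Rps26, which contacts mRNA upstream of the start codon at the exit of the channel, was at 139, 172 and 223 in WT and 46.8, 40.5 and 0 in CKO. All CKO libraries were below all WT libraries, but the spread of the low counts was wide (-3.81, SE 1.48, adjusted p = 0.243 by limma). Its reads in CKO were 34, 16 and 0.

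In the 60S subunit, several genes had separate groups without passing the test. Rpl32 was at 132, 139 and 381 in WT and 906, 451 and 731 in CKO (1.80, SE 0.57, adjusted p = 0.152 by limma), with WT replicate 3 close to CKO replicate 3. Rpl7 was at 28.3, 0 and 5.13 in WT and 101, 119 and 75.8 in CKO (4.12, adjusted p = 0.190 by limma). Of its windows 66.79% were shared, and 20.9% occurred in the processed pseudogene Gm6274. That copy was at 61.9, 59.8 and 0 in WT and 5.51, 0 and 4.13 in CKO (-2.28, adjusted p = 0.599 by limma). The copy Gm12174, with 43.5% of the windows, was at 1.18, 0 and 0 in WT and 5.51, 0 and 0 in CKO. How reads were divided between Rpl7 and its copies was not tested. Rpl36a was at 0, 0 and 6.67 in WT and 38.6, 15.2 and 24.8 in CKO (3.69, adjusted p = 0.229 by limma). Every CKO library was above every WT library in Rpl32, Rpl7 and Rpl36a, and Rpl36a was at 0 in the first 2 WT libraries. Of the 3 stalk proteins (Rplp0, Rplp1 and Rplp2) and the 9 listed proteins of the exit tunnel and its rim (Rpl4, Rpl17, Rpl19, Rpl22, Rpl23a, Rpl26, Rpl31, Rpl35 and Rpl39) none passed the test.

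Rpl18 was at 46.0, 69.4 and 39.5 in WT and 315, 104 and 172 in CKO, without overlap (1.81, adjusted p = 0.292 by limma, and 0.0323 in the authors' deposited table). WT replicate 3 was its lowest library.

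A further group of genes was far below CKO in WT replicates 1 and 2 and within the CKO range in WT replicate 3. Rps3, at the mRNA entry of the 40S subunit, was at 7.66, 15.6 and 251 in WT and 307, 109 and 218 in CKO. Its log2 difference was 2.56 with all libraries and 4.02 without WT replicate 3 (adjusted p = 0.347 and 0.0629 by limma). Rplp1, an acidic protein of the stalk, was at 58.9, 92.7 and 623 in WT and 1194, 291 and 603 in CKO, and its log2 difference was 1.97 with all libraries and 2.99 without WT replicate 3 (adjusted p = 0.316 and 0.103 by limma).

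Genes with every CKO library below every WT library, beside Rps26, Rpl6 and Rpl6l, were Rpl24, Rpl10a, Rpl22, Rps6, Rps9 and Rpl29. Rps6, the 40S protein that S6 kinases phosphorylate downstream of mTOR, was at 175, 165 and 561 in WT and 64.7, 60.8 and 143 in CKO (-1.60, adjusted p = 0.329 by limma). Rpl22, which lies on the 60S surface, was the most abundant of them per coding kilobase and was at 744, 738 and 1615 in WT and 461, 392 and 569 in CKO (-1.03, adjusted p = 0.288 by limma). Rpl24 was at 54.2, 109 and 56.4 in WT and 5.51, 22.8 and 0 in CKO (-3.71, adjusted p = 0.239 by limma). The genes of this group did not share 1 size of difference, and none passed the test.

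Rpl10a was at 54.8, 114 and 242 in WT and 5.51, 27.9 and 33.1 in CKO (-2.64, adjusted p = 0.279 by limma). Rps9 was at 215, 264 and 903 in WT and 172, 208 and 168 in CKO (-1.03, adjusted p = 0.459 by limma), or -0.39 without WT replicate 3. Rpl29 was at 229, 288 and 226 in WT and 95.0, 208 and 114 in CKO (-0.90, adjusted p = 0.493 by limma).

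Rpl6, a 60S protein, had the largest decrease of the members at MII by limma. At GV it was at 4064, 6537 and 4858 in WT and 2024, 1728 and 1833 in CKO, without overlap. The authors' deposited table gave a log2 fold change of -1.47 with an adjusted p of 1.37e-10. At MII it was at 153, 211 and 188 in WT and 8.26, 0 and 33.1 in CKO, that is 6, 0 and 24 reads. All CKO libraries were below all WT libraries there too, but the difference of -4.75 (SE 1.37) did not pass the test by limma (adjusted p = 0.119), while the authors' deposited table gave -3.70 with an adjusted p of 0.00849.

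The copies of Rpl6 moved with it. Rpl6l, at GV, was at 191, 306 and 304 in WT and 57.2, 116 and 68.7 in CKO, and the authors' deposited table gave a log2 fold change of -1.72 with an adjusted p of 0.00487. Gm6136, which holds 52.6% of the windows of Rpl6, was at 480, 503 and 462 in WT and 99.0, 193 and 186 in CKO (-1.60, adjusted p = 0.000432 in the authors' deposited table). Neither copy overlapped between genotypes. With 61.8% of the windows of Rpl6l shared with Rpl6, the values of copy and parent are not independent. At MII, Rpl6l had 32, 14 and 3 reads in WT and 0, 0 and 1 in CKO.

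Besides Rpl6, Rpl6l and Rps4l, the GV table held 5 other members. In all, the authors' deposited table had 5 members higher (Rpl10, Rps4l, Rpl12, Rps23 and Rpl36) and 3 lower (Rpl6, Rpl36al and Rpl6l) with more than a 2-fold change and an adjusted p under 0.05. Of the genes it implies as tested, 4.96% were higher and 7.89% lower. The number tested (21462) was inferred from ranks among the selected genes. It can therefore be too low, and these shares too high, here and below. In none of the 8 did the libraries of the genotypes overlap. All 8 were there because they passed the authors' selection, so their differences describe them and are no support for a pattern. The other 72 core genes were not selected at GV.

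**Figure D4:**
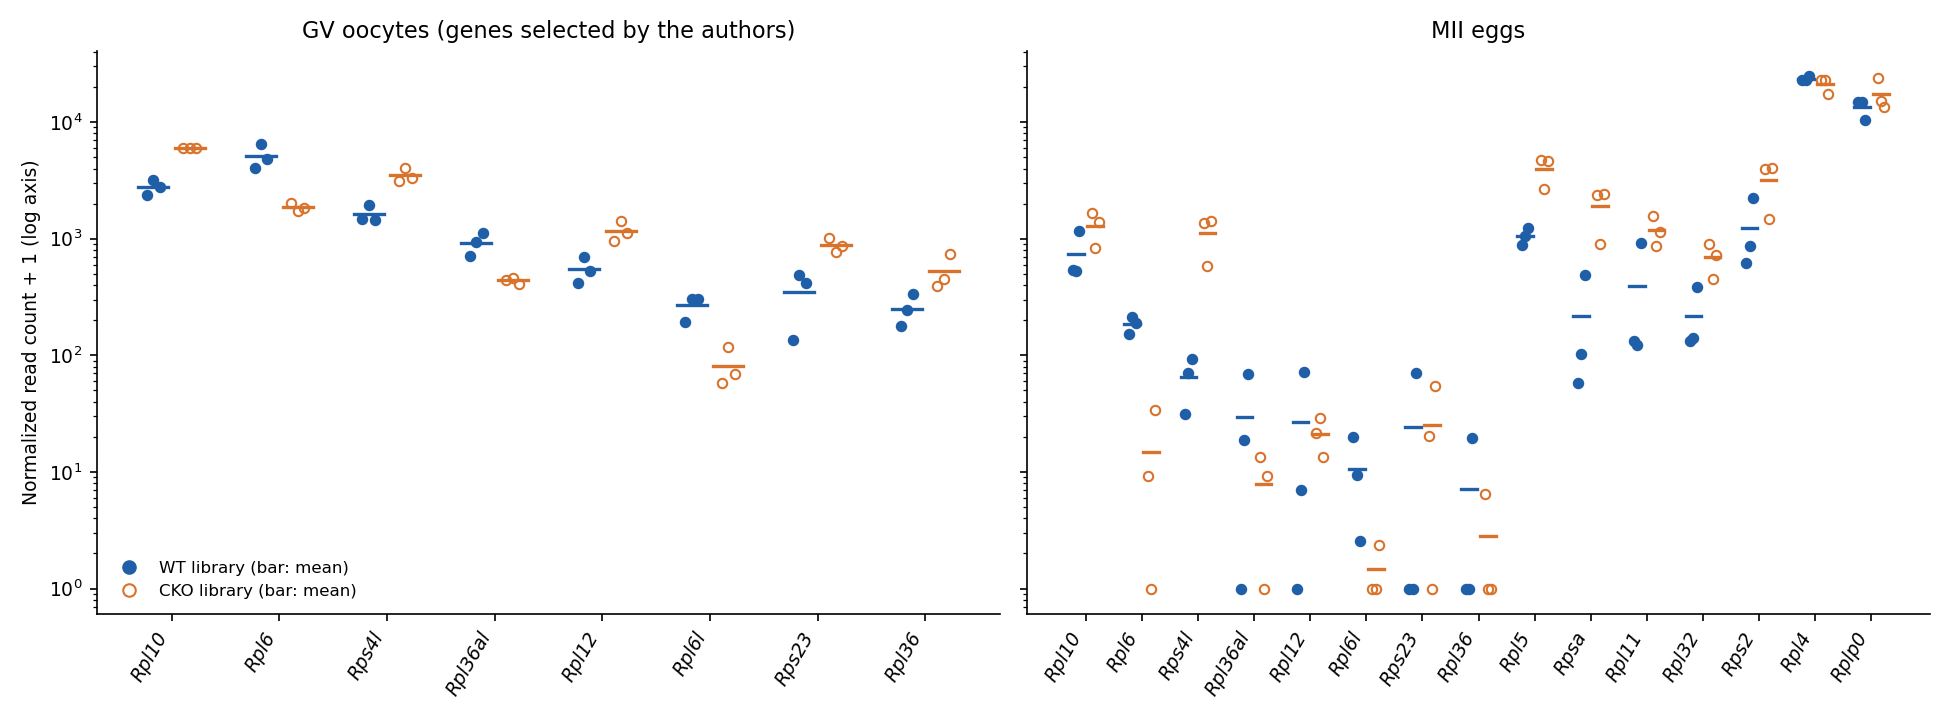
Normalized read count plus 1 (log axis) in each library, with the group mean as a bar, for the 8 ribosomal protein genes of the GV table (left) and for these and 7 others at MII (right). The tables were normalized separately; at GV no gene overlaps between WT (filled) and CKO (open), while at MII Rps4l and Rpl5 are the called genes and Rpl4 and Rplp0 overlap.

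Rpl10, which completes the 60S subunit late in its assembly, was at 2367, 3179 and 2782 in WT GV oocytes and 5940, 6043 and 6016 in CKO. The CKO libraries lay close together and all above WT, and the authors' deposited table gave a log2 fold change of 1.11 with an adjusted p of 4.12e-11. At MII it was at 535, 523 and 1157 in WT and 1651, 825 and 1398 in CKO. WT replicate 3 lay within the CKO range there, and the difference of 0.85 did not pass the test (adjusted p = 0.379 by limma).

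Rpl10 is the least distinguishable of these genes, with 92.1% of its windows shared with Rpl10-ps3. That copy was at 343, 525 and 477 in WT and 934, 1147 and 1072 in CKO at GV, and Rpl10-ps6 at 260, 319 and 345 in WT and 603, 640 and 662 in CKO. The authors' deposited table gave log2 fold changes of 1.23 and 1.05 for them, next to 1.11 for Rpl10. The 3 rose together in the CKO libraries.

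Rpl12, a 60S protein at the foot of the stalk, was at 416, 696 and 529 in WT and 950, 1409 and 1110 in CKO at GV (1.08, adjusted p = 0.00213 in the authors' deposited table). Rps23, a 40S protein of the decoding centre, was at 133, 487 and 419 in WT and 1011, 767 and 864 in CKO at GV (1.35, adjusted p = 0.0202 in the authors' deposited table). Rpl36 was at 178, 241 and 332 in WT and 395, 450 and 742 in CKO at GV (1.08, adjusted p = 0.0405 in the authors' deposited table). WT replicate 1 was the lowest library in all 3 genes.

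At MII the same 3 genes were sparse. Rpl12 was at 0, 5.98 and 71.3 in WT and 20.7, 27.9 and 12.4 in CKO. Rps23 was at 0, 0 and 69.2 in WT and 19.3, 0 and 53.7 in CKO. Rpl36 was at 0, 0 and 18.5 in WT and 5.51, 0 and 0 in CKO. In each of them WT replicate 3 was the highest of all 6 libraries and the other WT libraries were at or near 0, and no difference was detectable between genotypes at this depth.

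Rpl36al, a relative of Rpl36a, was at 705, 945 and 1125 in WT GV oocytes and 444, 459 and 412 in CKO (-1.08, adjusted p = 0.000779 in the authors' deposited table). At MII it was at 0, 17.9 and 68.7 in WT and 12.4, 0 and 8.26 in CKO, with overlap.

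Of the 13 paralogs tested at MII, Rps4l alone passed the test. Beside Rps4l and Rpl36al, 5 had a mean of at least 10 normalized counts over the 6 libraries. The other 6 tested (Rpl6l, Rpl22l1, Rps12l1, Rps27rt, Rps3a2 and Rps3a3) were at 22.0 or below in every library. Rpl39l, a retrocopy-derived form of the exit tunnel protein Rpl39 known from testis, was at 1.77, 14.96 and 17.9 in WT and 50.9, 53.2 and 95.0 in CKO. Rpl10l, the autosomal testis form of Rpl10, was at 354, 421 and 20.5 in WT and 622, 524 and 423 in CKO. In both all CKO libraries were above all WT libraries without passing the test (2.78, adjusted p = 0.306, and 1.81, adjusted p = 0.405, by limma). Without WT replicate 3 the log2 difference was 3.28 for Rpl39l and 0.42 for Rpl10l. Of the windows of Rpl39l 0% and of Rpl10l 7.60% occurred in another transcript.

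Rps27l, a relative of Rps27 that p53 induces, was at 116, 194 and 1119 in WT and 256, 63.3 and 212 in CKO. Rpl7l1 was at 57.8, 16.2 and 487 in WT and 81.2, 157 and 125 in CKO. Rpl37rt, a retrocopy with 81.2% of its windows in Rpl37, was at 166, 263 and 856 in WT and 370, 32.9 and 164 in CKO. WT replicate 3 was the highest library for all 3, in contrast to Rpl10l, for which it was the lowest, and the groups overlapped.

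**Figure D5:**
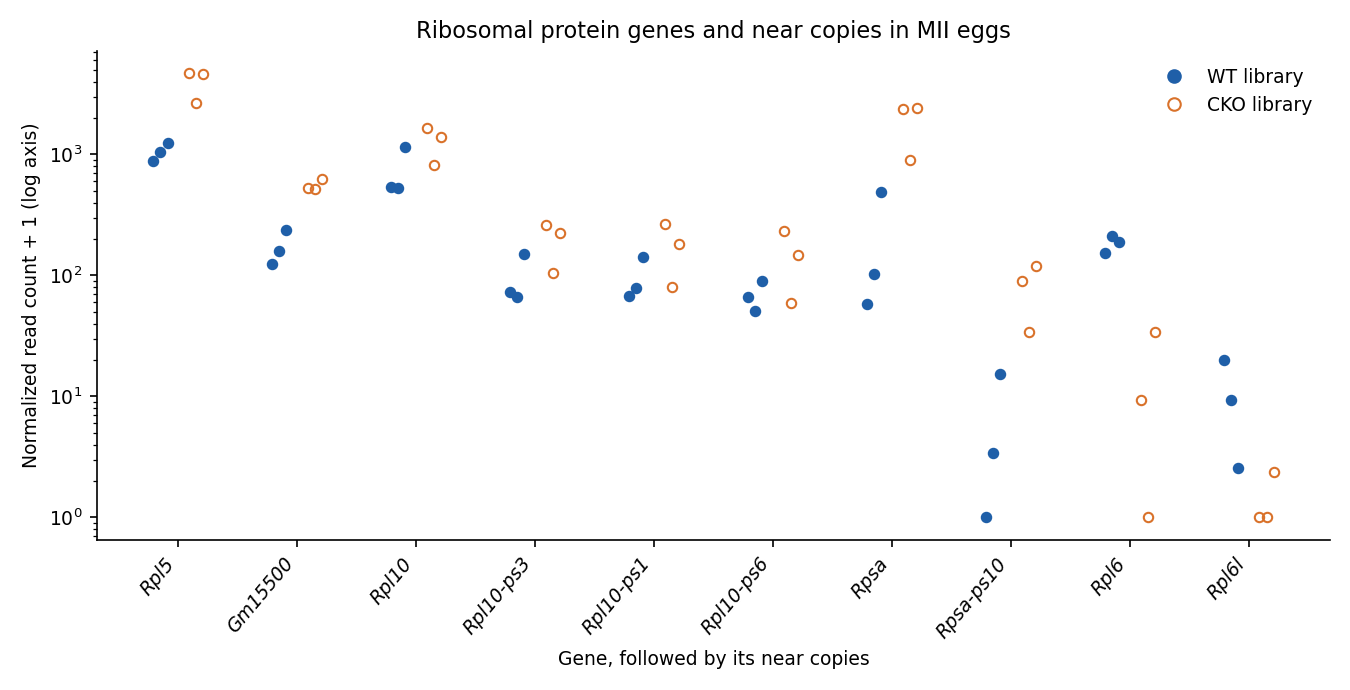
Normalized read count plus 1 (log axis) at MII for Rpl5, Rpl10, Rpsa and Rpl6, each followed by transcripts that share 50-base windows with it, in WT (filled) and CKO (open) libraries. Gm15500 lies higher in all CKO libraries as Rpl5 does. Rpl6l lies lower in CKO, but its 3 reads in WT replicate 3 against 0, 0 and 1 in CKO are too few to separate that library.

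Proteins of the same ribosome encoded by Fau and Rack1 fall outside the symbol rule. Fau, whose product is cleaved to the 40S protein eS30, was at 271, 358 and 1041 in WT and 132, 129 and 110 in CKO at MII, without overlap (-1.91, SE 0.62, adjusted p = 0.168 by limma). Rack1, the scaffold on the head of the 40S subunit, was at 1010, 1254 and 3299 in WT and 3812, 1190 and 3259 in CKO, with overlap. Neither was in the GV table.

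Among ribosome biogenesis factors, 1 of 103 tested was higher and 4 were lower in CKO eggs at MII (limma, adjusted p under 0.05), against 0.52% and 0.991% of all genes. The median log2 difference was -0.08 over the list and -0.11 over all genes. Pdcd2l, related to the Rps2 chaperone Pdcd2, went from 16590 ± 629 in WT to 3792 ± 655 in CKO (SD, n = 3 per group; -2.14, adjusted p = 0.00988 by limma). Gnl2, a GTPase of 60S assembly, went from 1598 ± 176 to 254 ± 56.8 (-2.67, adjusted p = 0.0161 by limma). Nip7, another 60S assembly factor, and Sbds, which helps to release the anti-association factor eIF6 from new 60S subunits, were the other 2 (-2.87, adjusted p = 0.0266, and -1.64, adjusted p = 0.0283, by limma). The higher one was Rsl24d1, a 60S assembly factor related to Rpl24 (2.21, adjusted p = 0.0486 by limma). All 5 kept an adjusted p under 0.05 without WT replicate 3, and none did without any other single library, where 0 genes of the whole table were called.

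At GV, of the 106 biogenesis factors listed the authors' deposited table held 6 higher (Nop2, Ubtf, Tsr1, Nob1, Rrp8 and Dkc1) and 4 lower (Gnl2, Nip7, Utp3 and Polr1b) at an adjusted p under 0.05. Of the genes that table implies as tested, 4.96% were higher and 7.89% lower at that threshold. In the authors' deposited table Nop2, an rRNA methyltransferase, had the largest rise (log2 fold change 2.18, adjusted p = 1.16e-22) and Nip7 the largest fall (-1.81, adjusted p = 3.88e-08). Gnl2 and Nip7 were lower at both stages.

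Of 28 other TOP transcripts tested, 1 was higher and none lower at MII, against 0.52% and 0.991% of all genes, with a median log2 difference of 0.19 against -0.11. It was Pabpc1, the cytoplasmic poly(A)-binding protein, at 561, 196 and 484 in WT and 6982, 4183 and 6219 in CKO (3.91, adjusted p = 0.00912 by limma, and 4.09 at 0.0384 without WT replicate 3). The authors' deposited GV table held 5 of the list at an adjusted p under 0.05, all higher: Pabpc1, Eef1a1, Eef1g and the non-coding Snhg1 and Gas5. Of the genes that table implies as tested, 4.96% were higher and 7.89% lower. The log2 fold change there was 3.13 for Pabpc1 and 1.01 for the elongation factor Eef1a1 in the authors' deposited table. Of 31 genes of the mTOR, LARP1 and S6 kinase list none passed the test at MII, with a median of 0.10. At an adjusted p under 0.05 the authors' deposited GV table held 2, both lower (Rptor, the mTORC1 scaffold, and Rps6ka2), against the same 4.96% and 7.89%.

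For comparison, the 80 mitochondrial ribosomal protein genes, which build the separate ribosome of mitochondria, had a median log2 difference of -0.60 at MII, against -0.11 over all genes. Of them 0 were higher and 3 lower by limma at an adjusted p under 0.05, against 0.52% and 0.991% of all genes. The difference between the 2 families was not tested.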

How the data were processed

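Tables of MII eggs (22801 genes) and GV oocytes (3475 genes selected by the authors) were used as deposited. Each library's value was deposited by the authors as log10(normalized count + 1), and 10 to the power of it minus 1 is printed here. Per the file headers each table also holds the mean signal over its 6 libraries, a log2 fold change and a score from a test, with the p-value before and after adjustment. The aligner, genome build, annotation, counting tool, its strand setting and any poly(A) selection remain not given in the sources used here. Members and lists were chosen with earlier results of these data known.

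Whole reads were recovered from the steps of the values (100% within 0.05 of a whole number) and served for depths, shares and an alternative test. For MII, genes with a mean of at least 1 (20388 genes) entered a linear model of log2(normalized count + 1) in limma 3.58.1 (R 4.3.3), its variance prior following the mean level. It set 3 WT against 3 CKO libraries with genotype as the only term, and p-values were adjusted by Benjamini-Hochberg over all genes with a threshold of 0.05. On this scale the log2 difference of a low gene can be smaller or larger in size than in the authors' deposited test. It was -2.55 against -3.99 for Rpl6l, and -4.75 against -3.70 for Rpl6. The planned test for raw counts was not used, since the deposited unit is not counts. For GV the authors' deposited test was used, since the table holds selected genes. The scripts were tested on simulated data. If the replicates are not separate collections, p-values measure only the spread between tubes.

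Named were all members called at MII or listed at GV, paralogs with a mean of at least 10, the 8 core members of smallest p, the 5 highest and 5 lowest core members by WT level, Fau, Rack1, Lsm14b and up to 4 called genes per list. Single values of some genes that this rule names are not reported here. Others named with values (Rps4x, Rps3, Rplp1, Rpl18, the members without overlap, copies and neighbours, Rsl24d1, Cyp19a1) were added after their values were seen. All 91 members matched GENCODE M21 (GRCm38), which gave coordinates, coding lengths (84 members) and transcripts. Windows of 50 bases found in another gene's transcript, on either strand, were counted as shared, and pairs were aligned with Biopython 1.88. Alternatives were the pseudocount, filters, scalings, tests, thinning, the replicate number as a block and each library left out in turn.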

Additional observations from a re-analysis of the deposited data

How the results depend on the processing

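At MII the number of members called higher was 2 or 3 under another pseudocount, filter, scaling, limma-voom or thinned reads, where none was called lower. Of all genes 72 to 109 were called higher and 80 to 218 lower under these settings. Limma with array weights gave WT replicate 3 a weight of 0.198, WT replicate 2 one of 4.37 and the other libraries 0.902 to 1.18. The WT group there rested mostly on WT replicate 2. This fit called 17 members higher and 3 lower, and 1297 and 1893 of all genes against 106 and 202 without weights. The authors' deposited test called 5 and 1 members (4.6% and 6.94% of all genes). Leaving out 1 library gave 0 to 3 higher (3 without WT replicate 3) and 0 lower. Without any other library 0 genes of the whole table were called. The causes were not tested. Replicate numbers did not pair the samples (correlations of 0.0133 and -0.10 for the 2 shared numbers). A replicate block leaves the genotype term to replicates 2 and 3, the only numbers that both genotypes have. Its lack of calls therefore decides nothing. With a replicate block, 0 genes of the whole table were called, members included, and the core median was -0.32. There 1 member was higher and 1 lower at an unadjusted p under 0.05, with the share of all genes not counted. The core median was -0.04 in the authors' deposited values and -0.28 to 0.61 with 1 library left out, and the ratio of read shares 0.998 to 1.23. Sparse or uncalled members changed sign. With the replicate block the log2 difference was -0.90 for Rps23, -1.52 for Rpl9 and -0.16 for Rpl38. With array weights it was 0.85 for Rpl36 and -0.71 for Rpl38, and with limma-voom 0.57 for Rpl36. The authors' deposited values were -0.35 for Rpl12 and -0.63 for Rpl7l1. With 1 library left out the log2 difference ranged from -2.87 to 0.20 for Rpl36al, -0.15 to 2.94 for Rpl12, -1.43 to 0.90 for Rpl36, -1.62 to 0.014 for Rps27l, -0.52 to 1.89 for Rpl7l1, -1.01 to 1.25 for Rpl9 and -1.81 to 0 for Rps19. Of the 3475 genes selected at GV, 1064 were higher and 1694 lower at an adjusted p under 0.05 in the authors' deposited test, so others were listed besides. All 8 members had an adjusted p under 0.05, so the counts of 5 and 3 are the same without that cutoff. Genes outside the authors' selection could not be counted.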

Other observations

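Symbols with -ps that otherwise match the ribosomal protein names, which mark possible pseudogene copies, numbered 119 in the MII table and 8 in the GV table. Together they took 0.00572%, 0.00640% and 0.00551% of the reads of the WT eggs and 0.00890%, 0.00489% and 0.00677% of those of the CKO eggs. Among markers of other cells at MII, C1qb, a complement gene of the blood and immune list, was at 1904, 1493 and 1049 in WT and 113, 195 and 134 in CKO, Cd68, a macrophage marker of the same list, was at 21.2, 7.18 and 66.2 in WT and 95.0, 20.3 and 60.6 in CKO, and Ptprc, which marks white blood cells, was at 0, 0 and 3.59 in WT and at 0 in CKO. The part of other cells in the ribosomal protein counts was not tested.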
